A study of Mus musculus with 6 samples.

Results

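*Cd209a*, *Cd209b*, *Cd209d*, *Cd209f* and *Cd209g*, which lie in 1 cluster on chromosome 8, and *Clec10a* on chromosome 11 were followed in RNA sequencing of injured Achilles tendon, 6 of the 18099 genes in the deposited table. The 6 genes were selected on their read counts in the same comparison that is described here, between the knockout and control groups, and the rule has no threshold. All values of that comparison for these genes are therefore a description, with no p-value, and nothing is concluded from a threshold. The Cd209 cluster of the mouse holds 7 such genes in the table, and *Cd209c* and *Cd209e*, which were not selected, are given beside the others.

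Injured tendon tissue came from neonatal mice, and the Achilles tendon of each leg had been transected a week before. Control mice (n = 3) were littermates that carried the floxed *Ampkα1* alleles (Ampkα1fl/fl) without Cre, and the other group (n = 3) was Lysm-Cre; Ampkα1fl/fl, so that the floxed alleles are shared by both groups. Lysm-Cre is driven from the lysozyme M locus, *Lyz2*, and is active in macrophages, monocytes and neutrophils, while the RNA came from whole tissue. The labels do not say whether the tendons of both legs were pooled for a library. Each library held between 18076812 and 19479895 reads in genes, so that 3 reads, taken as the floor, were worth between 0.154 and 0.166 CPM (reads scaled to library size).

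Reads of *Prkaa1*, the targeted gene for AMPKα1, numbered 740, 688 and 690 in the control libraries and 626, 751 and 652 in the Lysm-Cre; Ampkα1fl/fl libraries, and the groups overlapped (log2 fold change -0.08, standard error (SE) 0.09, edgeR adjusted p = 0.744). *Lyz2*, the Cre locus, was at 7378, 7778 and 7372 against 9, 15 and 8 reads, with no overlap. The groups therefore differ in *Lyz2* as well as in Lysm-Cre and the targeting of *Ampkα1*. These go together in every library and cannot be told apart in this design. Tendon markers were abundant in every library, with a summed level between 94440 and 111400 CPM, and the 15 pan-macrophage markers summed to between 906.6 and 1233 CPM.

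The Cd209 genes encode type II membrane lectins with a calcium-dependent carbohydrate recognition domain, and are the mouse relatives of human DC-SIGN (CD209). Such receptors bind mannose- and fucose-rich glycans on microbes and host cells and take up what they bind. *Clec10a* encodes MGL1, a lectin for terminal galactose and N-acetylgalactosamine, and *Mgl2*, its neighbour, encodes the close relative MGL2. In the mouse these receptors are known from macrophages of connective tissue, marginal zone macrophages of the spleen and subsets of dendritic cells.

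Some of these genes share sequence, which bears on how reads were assigned to them. Coding sequences were taken from the GENCODE annotation of the same build. The longest identical run was 178 bases in *Cd209f* and *Cd209g*, and 183 bases in *Clec10a* and *Mgl2*. Shorter identical stretches were not listed. Of the 50-base windows of *Cd209f*, 30.03% were found in *Cd209g*, and 43.47% the other way. For *Clec10a* and *Mgl2* these shares were 27.56% and 22.06%. Both longest runs are shown because a read that falls inside cannot be placed on 1 gene of the pair. The run of *Cd209f* (coding bases 184 to 361) lies in exons 3, 4 and 5 of 8 on the minus strand of GRCm38, at chr8:4105271-4105292, chr8:4104823-4104891 and chr8:4104485-4104571. In *Cd209g* it opens the coding sequence (bases 1 to 178) in exons 3, 4 and 5 of 8 on the plus strand, at chr8:4135194-4135215, chr8:4135590-4135658 and chr8:4135910-4135996. The run of *Clec10a* lies in exons 6, 7 and 8 of 10 (coding bases 502 to 684), with its main piece at chr11:70169926-70170077, and that of *Mgl2* in exons 7, 8 and 9 of 9 (coding bases 550 to 732), with its main piece at chr11:70136441-70136592, both on the plus strand.
Cd209f and Cd209g, shared run: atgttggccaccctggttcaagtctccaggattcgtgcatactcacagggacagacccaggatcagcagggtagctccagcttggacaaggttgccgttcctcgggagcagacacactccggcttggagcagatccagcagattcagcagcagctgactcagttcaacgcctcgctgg
Clec10a and Mgl2, shared run: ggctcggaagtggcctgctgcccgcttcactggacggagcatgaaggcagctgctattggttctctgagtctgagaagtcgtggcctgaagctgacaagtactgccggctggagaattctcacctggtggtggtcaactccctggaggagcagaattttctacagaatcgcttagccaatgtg

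The deposited values carried a trace of this sharing. Estimated reads of *Cd209f* were not whole numbers in any library (whole in 0 of 6, within 0.02 of a read), and those of *Cd209g* were whole in 1 of 6. Their sum was whole in 6 of 6 libraries, at 183, 167 and 195 reads in the controls and 41, 29 and 30 in the Lysm-Cre; Ampkα1fl/fl libraries. The same held for the sum of *Clec10a* and *Mgl2*, which was whole in 6 of 6 libraries where each gene alone was whole in 4. *Cd209a*, *Cd209b*, *Cd209c*, *Cd209d* and *Cd209e* were whole in 6 of 6. The division of reads within these pairs is therefore an estimate by the authors' counting, while the sum of a pair does not depend on it. Over the whole coding sequence *Cd209f* and *Cd209g* were 63.48% identical, and *Clec10a* and *Mgl2* 74.87%.

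*Clec10a*, *Cd209f*, *Cd209g* and *Cd209a* were lower in each Lysm-Cre; Ampkα1fl/fl library than in any control library, while *Cd209b* and *Cd209d* had too few reads to be placed. Thus 4 of the 6 genes had groups that did not overlap, where 11.4% of all 14261 genes tested were lower in this way. Since the genes were selected on this contrast, nothing is read from the comparison of the shares. In bulk tissue, fewer cells of a type and less RNA per cell cannot be told apart.

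*Cd209f* (NCBI Gene 69142, chr8:4102784-4105838) carried most of the cluster's reads in the controls. It had 149, 139 and 154 reads in the control libraries and 33, 25 and 28 in the Lysm-Cre; Ampkα1fl/fl libraries. In CPM these were 7.88, 7.59 and 8.44 against 1.72, 1.35 and 1.51. All 3 knockout libraries lay close together and far below the lowest control. The means were 7.97 ± 0.431 CPM and 1.53 ± 0.185 CPM (SD, n = 3 each), a 5.22-fold lower level and a log2 fold change of -2.38 (SE 0.16).

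*Cd209g* (NCBI Gene 70192, chr8:4134246-4137707), the neighbour that shares the run of coding sequence with *Cd209f*, had 34, 28 and 41 reads in the controls and 8, 4 and 2 in the Lysm-Cre; Ampkα1fl/fl group. The groups did not overlap, but 1 knockout library was below the floor of 3 reads. Its level was 1.86 ± 0.363 CPM in the controls and 0.247 ± 0.157 CPM in the Lysm-Cre; Ampkα1fl/fl group (SD, n = 3 each), with a log2 fold change of -2.87 (SE 0.45). When *Cd209f* and *Cd209g* were taken as 1 sum, which does not depend on how shared reads were divided, the log2 fold change was -2.46 (SE 0.17). Of that sum, 18.4%, 16.8% and 21.2% was estimated as *Cd209g* in the controls and 19.5%, 14.3% and 6.97% in the Lysm-Cre; Ampkα1fl/fl libraries, so that the estimated shares overlapped.

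*Cd209a* (NCBI Gene 170786, chr8:3743395-3748984) is the gene usually named as mouse DC-SIGN, and is known from monocyte-derived dendritic cells. Its reads were 27, 27 and 19 in the controls and 11, 10 and 9 in the Lysm-Cre; Ampkα1fl/fl group. The groups did not overlap, although the third control library was lower than the other two. Levels were 1.31 ± 0.238 CPM and 0.533 ± 0.044 CPM (SD, n = 3 each), and the log2 fold change was -1.29 (SE 0.28). *Cd209a* lies at the other end of the cluster from *Cd209f*.

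*Cd209d* (NCBI Gene 170779, chr8:3871824-3878548) and *Cd209b* (NCBI Gene 69165, chr8:3917655-3926841) did not pass the filter on low counts. *Cd209d* had 6, 9 and 1 reads in the controls and 5, 1 and 2 in the Lysm-Cre; Ampkα1fl/fl group. *Cd209b*, which encodes SIGN-R1 and is known from marginal zone macrophages, had 4, 0 and 0 reads against 0, 2 and 0. The groups overlapped for both genes. Per read sequenced, the ratio of the Lysm-Cre; Ampkα1fl/fl group to the controls was 0.49 for each, with exact 95% intervals from 0.182 to 1.21 for *Cd209d* and from 0.0443 to 3.42 for *Cd209b* that cover counting error only. At this depth a decrease was not detectable in either gene, and the ratio of *Cd209a*, 0.406, lay inside both intervals.

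*Clec10a* (NCBI Gene 17312, chr11:70166623-70170836) had the most reads of the 6 genes. It had 462, 457 and 497 reads in the controls and 229, 195 and 152 in the Lysm-Cre; Ampkα1fl/fl group, or 24.4, 25.0 and 27.2 CPM against 11.9, 10.5 and 8.21 CPM. The highest knockout library was below the lowest control. Levels were 25.5 ± 1.49 CPM and 10.2 ± 1.88 CPM (SD, n = 3 each), a log2 fold change of -1.32 (SE 0.14).

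The reads of *Cd209a*, *Cd209b*, *Cd209d*, *Cd209f* and *Cd209g* added together were 220, 203 and 215 in the control libraries and 57, 42 and 41 in the Lysm-Cre; Ampkα1fl/fl libraries. Their summed level was 11.5 ± 0.367 CPM and 2.49 ± 0.421 CPM (SD, n = 3 each), a log2 fold change of -2.21 (SE 0.15). The sum is mostly *Cd209f*, and does not speak for *Cd209b* or *Cd209d*.

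**Figure D1:**
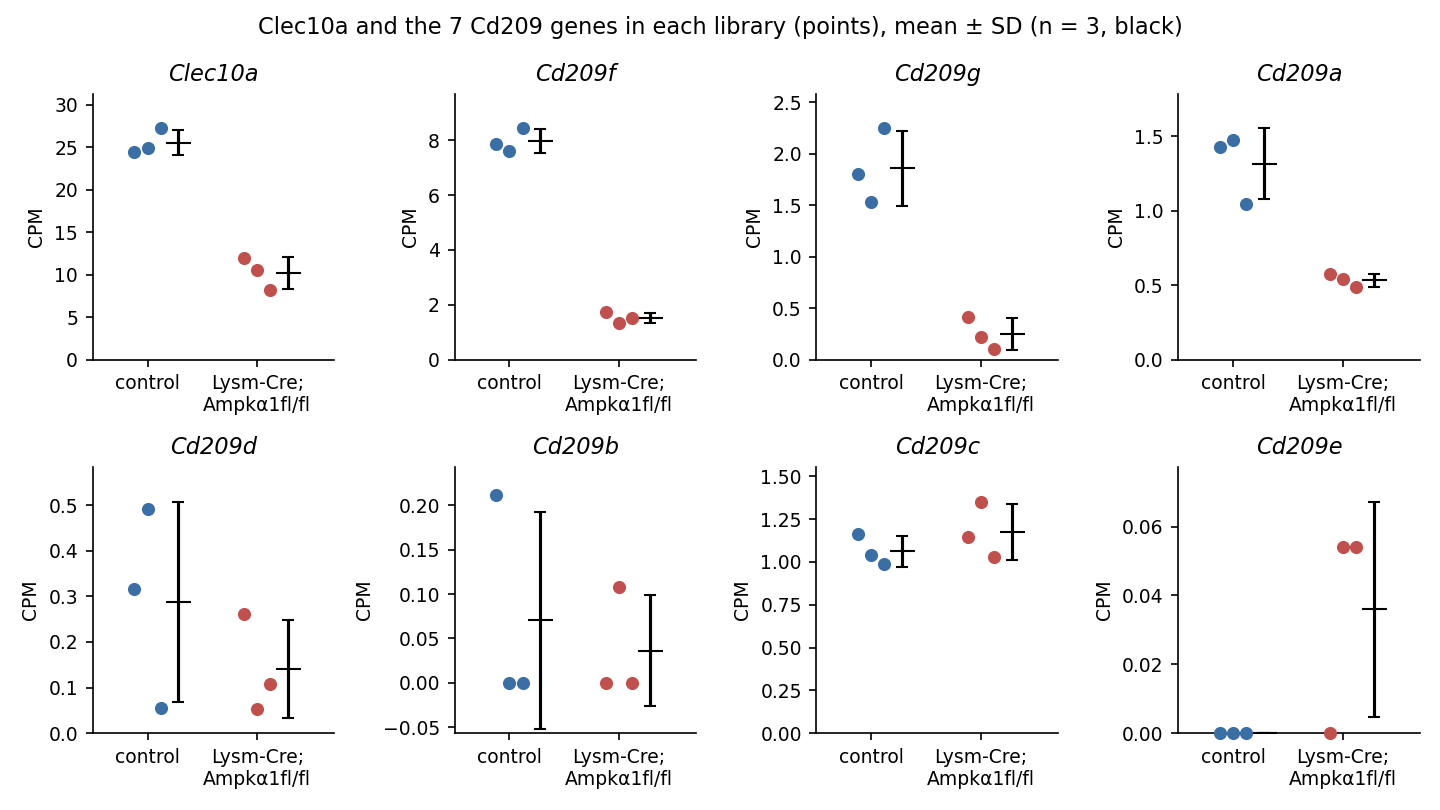
Level in CPM (y axis, linear, a scale for each gene) of *Clec10a* and the 7 *Cd209* genes in the control (blue) and Lysm-Cre; Ampkα1fl/fl (red) libraries. Points are libraries and black bars the mean ± SD (n = 3). The groups are apart for *Clec10a*, *Cd209f*, *Cd209g* and *Cd209a*, and overlap for *Cd209d*, *Cd209b*, *Cd209c* and *Cd209e*.

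Of the 6 genes, 3 (*Cd209f*, *Cd209g* and *Clec10a*) passed the threshold of 0.05 on the adjusted p in the edgeR fit over all genes, where 0.568% of all genes tested were called lower, and again nothing is read from this. With the replicate number as a block, 1 gene was called, *Cd209f*.

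*Cd209c* (NCBI Gene 170776, chr8:3940081-3954746), which lies between *Cd209b* and *Cd209f* and was not selected, was not lower. It had 22, 19 and 18 reads in the controls and 22, 25 and 19 in the Lysm-Cre; Ampkα1fl/fl group. Its level was 1.06 ± 0.0911 CPM and 1.17 ± 0.164 CPM (SD, n = 3 each), a log2 fold change of 0.14 (SE 0.24, edgeR adjusted p = 0.848). *Cd209e* (NCBI Gene 170780, chr8:3847973-3854286) had 0 reads in each control library and 0, 1 and 1 in the Lysm-Cre; Ampkα1fl/fl libraries, at or under the floor in both groups, so no fold is given.

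The make-up of the cluster's reads differed between the groups, with groups apart for *Cd209a*, *Cd209c*, *Cd209f* and *Cd209g*. *Cd209f* held 63.4% ± 2.37 of the reads of the 7 *Cd209* genes in the controls and 41.5% ± 4.58 in the Lysm-Cre; Ampkα1fl/fl group (SD, n = 3 each). *Cd209g* held 14.7% ± 2.57 and 6.43% ± 3.46, and *Cd209a* 10.5% ± 2.09 and 14.5% ± 0.466. The share of *Cd209c* was 8.46% ± 0.688 in the controls and 31.9% ± 4.51 in the Lysm-Cre; Ampkα1fl/fl group. The shares add up to a whole, so those of the other genes rise where *Cd209f* is lower. The reads of *Cd209c* were 22, 19 and 18 in the controls and 22, 25 and 19 in the Lysm-Cre; Ampkα1fl/fl group. *Cd209a* rose in share although its level was lower. These shares come from the counts on which the genes were selected, and are a description.

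**Figure D2:**
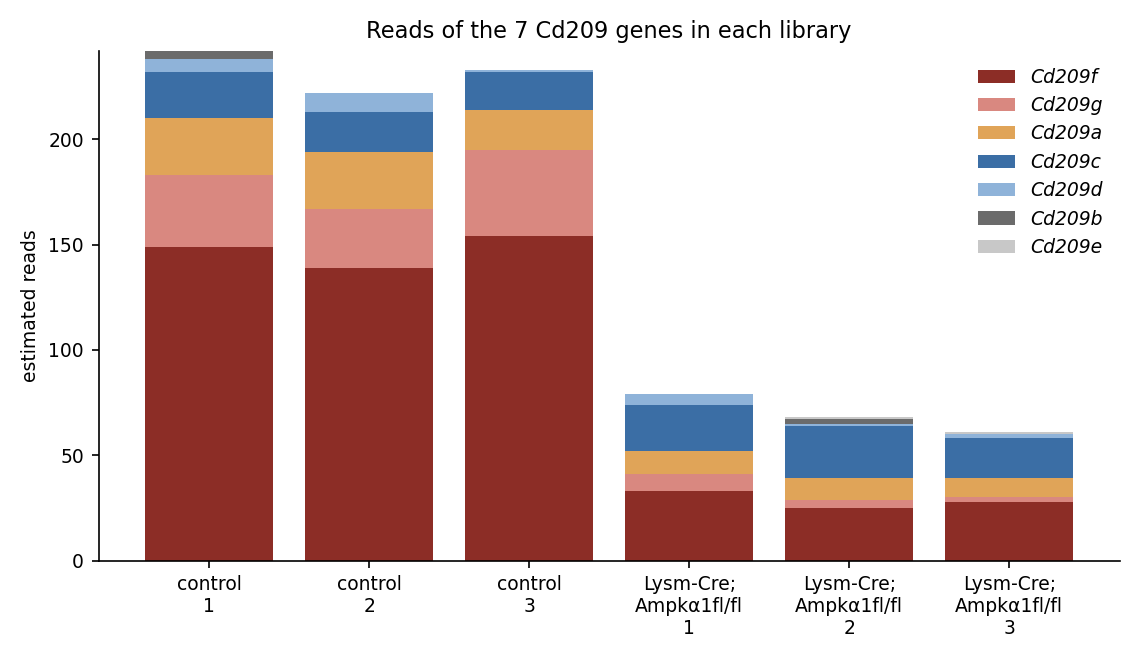
Estimated reads (y axis) of the 7 *Cd209* genes, stacked, in each of the 3 control and 3 Lysm-Cre; Ampkα1fl/fl libraries. The totals are 242, 222 and 233 reads in the controls and 79, 68 and 61 in the Lysm-Cre; Ampkα1fl/fl libraries, and the *Cd209c* segment (dark blue) is between 18 and 25 reads throughout.

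Levels of different genes were set side by side in TPM, a unit in which the authors scaled reads to transcript length and library total. In the controls *Clec10a* stood at 43.2 ± 3.04 TPM, followed by *Mgl2* at 18.2 ± 3.43 TPM and *Cd209f* at 17.6 ± 1.60 TPM (SD, n = 3 each), and the libraries of *Mgl2* and *Cd209f* overlapped. *Cd209g* followed at 4.56 ± 0.816 TPM and *Cd209a* at 2.25 ± 0.381 TPM, each apart from the gene above it. *Cd209c*, *Cd209d*, *Cd209b* and *Cd209e* came below, each overlapping the gene before it. In the Lysm-Cre; Ampkα1fl/fl group the order was *Clec10a* at 17.4 ± 3.45 TPM, *Mgl2* at 9.71 ± 1.95 TPM, *Cd209f* at 3.37 ± 0.474 TPM, *Cd209c* at 1.92 ± 0.33 TPM and *Cd209a* at 0.92 ± 0.0872 TPM, with no overlap between neighbours in this order. *Cd209d* and *Cd209g*, at 0.63 ± 0.505 TPM and 0.617 ± 0.33 TPM, overlapped each other and *Cd209d* overlapped *Cd209a*. *Cd209c* thus stood below *Cd209a* in the mean of the controls, where they overlapped, and above it in the Lysm-Cre; Ampkα1fl/fl group, where they did not.

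The table lists 15 transcripts of the 6 genes, with repeated copies counted. In 9 of them, each Lysm-Cre; Ampkα1fl/fl library was below each control library, and 1 transcript of *Cd209f* had 0 reads in every library. The other 5 were the transcripts of *Cd209b* and *Cd209d*. The 9 include the 4 entries of *Clec10a*, where each transcript is listed again with the same estimated reads. They also include XM_006508885 of *Cd209g*, with 8.13 estimated reads in the lowest control and 7.98 in the highest knockout library. The share of all transcripts that were lower in this way was not computed, and nothing is read from the count. The main transcript of *Cd209f* (NM_026956) had 84.72, 97.14 and 113.02 estimated reads in the controls and 24.28, 17.12 and 15.69 in the Lysm-Cre; Ampkα1fl/fl group. It took 66.7% ± 8.83 of the gene's reads in the controls and 66.2% ± 8.96 in the other group (SD, n = 3 each). The predicted transcript XM_006508868, with 64.6, 41.83 and 40.71 estimated reads against 8.74, 7.73 and 12.22, was lower alongside it.

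For *Cd209g*, the reads moved between its 2 transcripts from library to library. The share on NM_027343 was 75.3%, 71.0% and 21.1% in the controls and 0%, 100% and 100% in the Lysm-Cre; Ampkα1fl/fl libraries, where the gene had 8 reads at most, so the transcripts of this gene are not told apart at this depth. For *Clec10a*, NM_010796 took 58.8% ± 4.14 of the reads in the controls and 60.5% ± 8.94 in the Lysm-Cre; Ampkα1fl/fl group (SD, n = 3 each). Each *Clec10a* transcript is listed as 2 copies with the same estimated reads, and only with both copies added does the sum with *Mgl2* come to whole reads. The gene's reads given here hold both.

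*Mgl2*, which shares the coding run with *Clec10a*, had 258, 206 and 172 reads in the controls and 136, 81 and 118 in the Lysm-Cre; Ampkα1fl/fl group. The groups did not overlap, and the log2 fold change was -0.94 (SE 0.22, edgeR adjusted p = 0.117). The share of the reads of both genes that was estimated as *Clec10a* was between 64.2% and 74.3% in the controls and between 56.1% and 70.7% in the Lysm-Cre; Ampkα1fl/fl libraries, and these ranges overlapped.

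The genes next to the cluster were examined within 300 kb of a selected gene. On chromosome 8, 22 other genes passed the filter, and 0 were called in edgeR's test (2 had an unadjusted p under 0.05, which 14.5% of all genes tested had in either direction, and DESeq2 called 0). Their median log2 fold change was 0.03, beside -0.002 for all genes tested. The lowest was *Camsap3* (log2 fold change -0.94, SE 0.24, edgeR adjusted p = 0.142), which was picked out after its value was seen, and which binds the minus ends of microtubules. *Evi5l*, the first fitted gene beyond *Cd209g*, had 38.7 ± 3.58 CPM in the controls and 38.2 ± 2.08 CPM in the Lysm-Cre; Ampkα1fl/fl group (SD, n = 3 each), and it was likewise picked for its place.

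On chromosome 11, 28 genes around *Clec10a* passed the filter and 0 were called in edgeR's test. An unadjusted p under 0.05 was reached by 4 of them, and DESeq2 called 3, *Mgl2*, *Cxcl16* and *Zmynd15*. Their median log2 fold change was 0.02. Those with the highest CPM, *Eif5a* (translation factor) and *Gabarap* (autophagy), had log2 fold changes of -0.08 (SE 0.10) and 0.13 (SE 0.06). The extremes were *Mgl2* at the lower end and *Zmynd15* at the upper end (log2 fold change 0.88, SE 0.18, edgeR adjusted p = 0.086), and *Cxcl16* and *Zmynd15* were named after their values were seen.

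**Figure D3:**
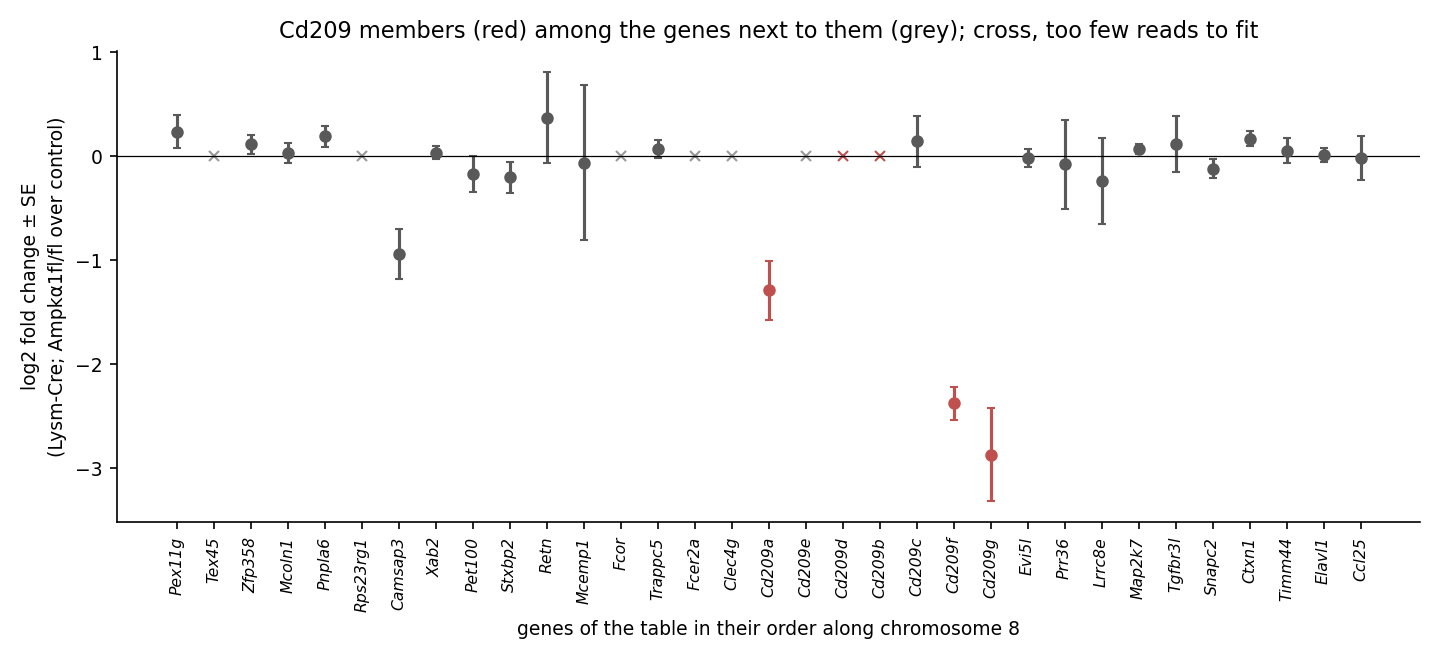
Log2 fold change ± SE (y axis, Lysm-Cre; Ampkα1fl/fl over control) of the genes of the table around the *Cd209* cluster, in their order along chromosome 8 (x axis, not to distance). Red, selected genes. Grey, other genes. Crosses at 0 mark genes with too few reads to fit, not a value. *Cd209a*, *Cd209f* and *Cd209g* lie between -1.29 and -2.87, and *Cd209c* between them is at 0.14.

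Promoter sequences (250 bases before to 50 after the start in RefSeq's table for GRCm38.p6) were found for the 7 *Cd209* genes. *Cd209f* and *Cd209g* were 81.25% identical in this window, and the other pairs between 43.6% and 58.75%. On both strands 8 motifs were searched, and the share of all 27025 promoters that hold each is given with it. The AP-1 motif TGANTCA (7.93% of promoters) was found in *Cd209f*, 83 to 77 bases before the start, and in *Cd209g*, 97 to 91 bases before the start, and in none of the other *Cd209* genes. The window of 27 bases around the match is shown because it is identical in both genes of the pair, with the motif in capitals. It overlaps no other match.
Cd209f, chr8:4105831-4105857, minus strand: ttttttccccTGAGTCAgagaagaatc
Cd209g, chr8:4134629-4134655, plus strand: ttttttccccTGAGTCAgagaagaatc

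The STAT6 motif (6.99% of promoters) was found in *Cd209e*, and the E-box CANNTG (72.1%) in *Cd209a*, *Cd209d* and *Cd209c*. The motifs TTCNNNGAA of other STAT factors (8.47%), GAGGAAG of PU.1 (13.5%), GGGNNNTCC of NF-kB (17.5%) and TGCTGAC of MAF (4.58%), and the interferon response motif (3.49%), were in none of the 7 windows. A match is a match of letters and no more, and the annotated genes *Cd209c*, *Cd209d*, *Cd209f* and *Cd209g* extend farther upstream than the start used. The window of *Cd209c* (chr8:3946814-3947113) lies wholly inside its gene (chr8:3940081-3954746), and that of *Cd209g* (chr8:4134486-4134785) inside its own (chr8:4134246-4137707). A motif found in or missing from these windows may not speak for the promoter of the annotated gene.

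Other lectin receptors of myeloid cells were taken as a list. Of 32 receptors on it, 19 passed the filter and 0 were called in edgeR's test (5 had an unadjusted p under 0.05, beside 14.5% of all genes tested, and DESeq2 called 3 lower and 1 higher). Over all genes DESeq2 called 381 lower and 307 higher, and its counts on this and the later lists stand beside those. The median log2 fold change was -0.23. *Mrc1*, the mannose receptor of macrophages, had 226 ± 24.9 CPM in the controls and 127 ± 33.2 CPM in the Lysm-Cre; Ampkα1fl/fl group (SD, n = 3 each), without overlap (log2 fold change -0.83, SE 0.19, edgeR adjusted p = 0.115). *Mrc2*, its relative in fibroblasts, which takes up collagen, was at 567 ± 16.5 CPM and 704 ± 95.1 CPM (log2 fold change 0.31, SE 0.10, edgeR adjusted p = 0.223).

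Signalling partners of lectin receptors had 0 of 15 genes called in edgeR's test, with a median log2 fold change of -0.04. Of them, 5 had an unadjusted p under 0.05, beside 14.5% of all genes tested, and DESeq2 called 1 higher. Groups were apart and lower in 6 (11.4% of all genes tested) and apart and higher in 1. The adaptor *Fcer1g*, among the lower ones, had a log2 fold change of -0.39 (SE 0.10, edgeR adjusted p = 0.154), and the kinase *Syk*, which overlapped, one of -0.04 (SE 0.11). The higher one, with the highest CPM, was *Lsp1*, a leukocyte protein that binds actin (log2 fold change 0.39, SE 0.12). Genes of the response to interleukins 4 and 13, which raise *Clec10a* and *Mgl2* in macrophages, had 0 of 17 called in edgeR's test (6 had an unadjusted p under 0.05, and DESeq2 called 4 lower), with a median of -0.03. Their summed level was between 792.7 and 802.1 CPM in the controls and between 655.4 and 721.4 CPM in the Lysm-Cre; Ampkα1fl/fl group, without overlap. *Mrc1* is part of this sum, at 226 CPM in the controls and 127 CPM in the Lysm-Cre; Ampkα1fl/fl group. The lower sum therefore does not speak for the list. Log2 fold changes were below 0 in 9 of the 17 genes and above 0 in 8. *Tgm2*, named after its values were seen, was the 1 gene with groups apart and higher (log2 fold change 0.16, SE 0.07). Of the 17, 5 had groups apart and lower (*Irf4*, *Pparg*, *Alox15*, *Mgl2* and *Mrc1*, of which the first 3 were named after their values were seen), where 11.4% of all genes tested did. *Irf4*, a transcription factor of this response, had a log2 fold change of -1.14 (SE 0.21, edgeR adjusted p = 0.0721), *Pparg*, a nuclear receptor for fatty acids, one of -0.90 (SE 0.23, adjusted p = 0.142) and *Alox15*, a lipoxygenase, one of -0.86 (SE 0.34, adjusted p = 0.312). *Cd36*, a scavenger receptor, was at 156 ± 21.3 CPM and 152 ± 53.3 CPM (SD, n = 3 each).

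Markers of macrophages in general had levels that were apart between the groups when summed. The sum was between 1171 and 1233 CPM in the controls and between 906.6 and 1097 CPM in the Lysm-Cre; Ampkα1fl/fl group. In edgeR's test 0 of 15 were called (8 had an unadjusted p under 0.05, beside 14.5% of all genes tested, and DESeq2 called 2 lower and 1 higher), the median log2 fold change was -0.24, and each marker was detected. *Csf1r*, the receptor for macrophage colony-stimulating factor, had a log2 fold change of -0.63 (SE 0.13, edgeR adjusted p = 0.0933), *Adgre1*, which encodes F4/80, -0.52 (SE 0.08, adjusted p = 0.0508), *C1qb* of complement -0.18 (SE 0.08, adjusted p = 0.349) and the lysosomal *Cd68* 0.25 (SE 0.14, adjusted p = 0.459).

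The selected genes were also set against these markers library by library, an alternative added after the data were seen. With 2 reads added before taking logs, log2 CPM of each gene minus the mean log2 CPM of the 15 markers differed between the groups by -2.12 for *Cd209f*, -2.36 for *Cd209g*, -0.95 for *Cd209a* and -1.13 for *Clec10a*. The mean of the markers itself differed by -0.19. The groups were apart for all 4 genes. Since these genes were selected on the same contrast, and the shift of the markers is small beside theirs, this could hardly have come out otherwise. Nothing is read from it.

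Most markers of resident (perivascular) macrophages had log2 fold changes below 0, alongside the selected genes. Of 20, 17 passed the filter, 4 were called lower and 0 higher in edgeR's test (where 0.568% of all genes tested were called lower and 0.33% higher), and the replicate block also gave 4, while DESeq2 gave 11. Over all genes, 36 were called lower with the block and 381 by DESeq2, beside 81 in the main fit. Between 0 and 6 of the list were called when 1 library was left out, where 6 to 137 were lower over all genes. The median log2 fold change was -0.82, with 16 of the 17 below 0 and 1 above. In edgeR's test 13 had an unadjusted p under 0.05 (14.5% of all genes tested). Groups were apart and lower in 12 (11.4%). The summed level was between 2176 and 2554 CPM in the controls and between 1650 and 1916 CPM in the Lysm-Cre; Ampkα1fl/fl group. In this sum *Igf1* and *Gas6* had 990 and 457 CPM in the controls and 859 and 398 CPM in the Lysm-Cre; Ampkα1fl/fl group. The sum therefore does not speak for the list.

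*Marco*, a scavenger receptor that binds bacteria, fell by 2.90 on the log2 scale (SE 0.34, edgeR adjusted p = 0.0217, but 0.0528 with the replicate block). *Folr2*, a folate receptor of resident macrophages, had a log2 fold change of -1.42 (SE 0.13, edgeR adjusted p = 0.0134). *Cbr2*, a carbonyl reductase, had one of -1.26 (SE 0.12, adjusted p = 0.0134), and *F13a1*, coagulation factor XIII A, one of -1.23 (SE 0.19, adjusted p = 0.0456). *Cd209f* lay below *Folr2*, *Cbr2* and *F13a1* in log2 fold change but above *Marco*. *Clec10a* and *Cd209a* lay beside *Folr2*, *Cbr2* and *F13a1*. The genes of the list with the highest CPM, *Igf1* and *Gas6*, which fibroblasts also make, had log2 fold changes of -0.20 (SE 0.08) and -0.20 (SE 0.10). The part of this shift in the values of the selected genes was not tested.

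**Figure D4:**
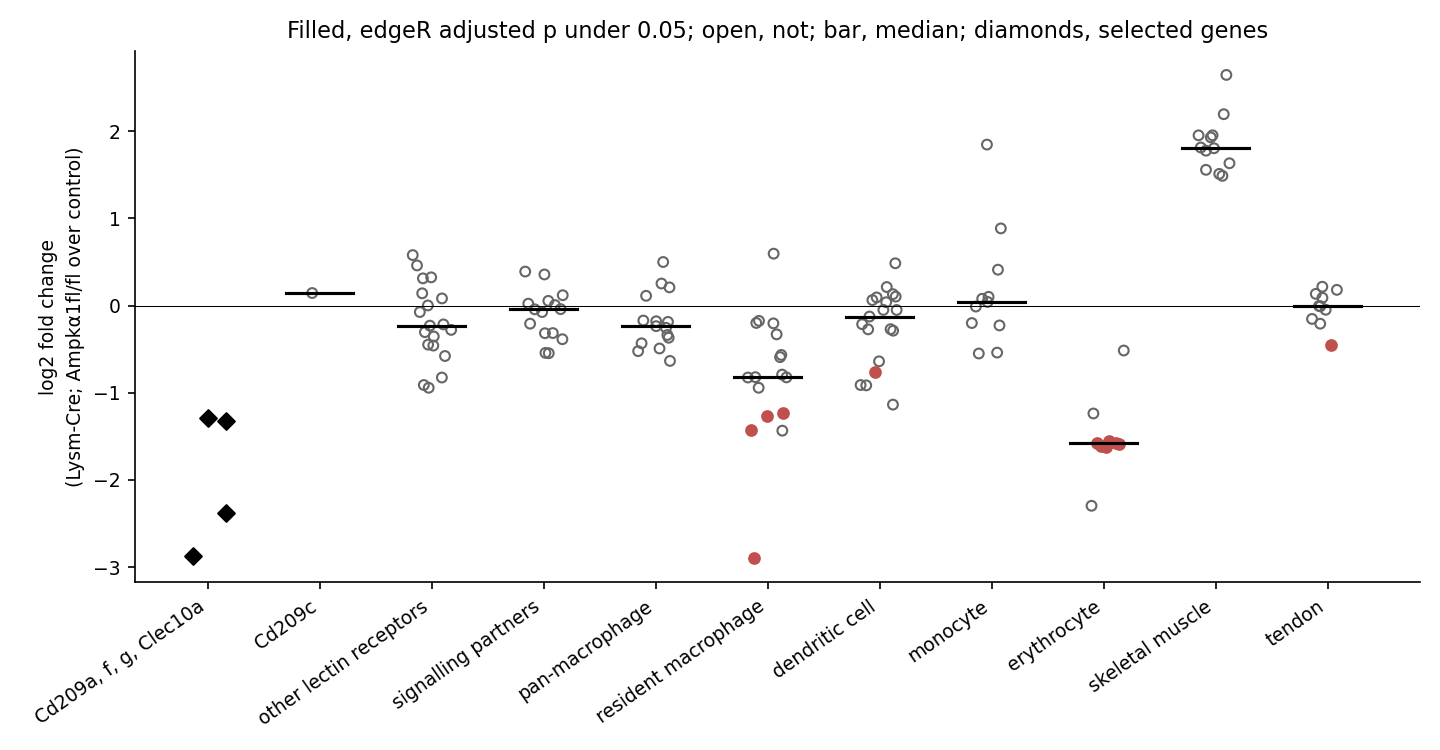
Log2 fold change (y axis, Lysm-Cre; Ampkα1fl/fl over control) of the genes of each list that passed the filter. Diamonds, *Cd209a*, *Cd209f*, *Cd209g* and *Clec10a*, which were selected on this contrast. Filled circles, edgeR adjusted p under 0.05. Open circles, not. Bars, medians of the other lists, at -0.82 for resident macrophage, -0.24 for pan-macrophage, -1.58 for erythrocyte and 1.81 for skeletal muscle markers.

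Other sources of these lectins were looked at through lists of markers. Of 19 dendritic cell markers tested, 1 was called lower in edgeR's test, *Dpp4* (log2 fold change -0.76, SE 0.08, adjusted p = 0.0148), which fibroblasts also express, where 0.568% of all genes tested were called lower. The median was -0.13, 3 had an unadjusted p under 0.05, DESeq2 called 2 lower, and leaving out 1 library gave 0 to 1. With the highest CPM, *Sirpa* and *Cd74*, the latter the invariant chain of MHC class II, had log2 fold changes of -0.13 (SE 0.10) and -0.21 (SE 0.15). Their summed level was between 481 and 559 CPM in the controls and between 441.2 and 502.9 CPM in the Lysm-Cre; Ampkα1fl/fl group, with overlap.

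Of 11 monocyte markers tested, 0 were called in edgeR's test (3 had an unadjusted p under 0.05, and DESeq2 called 1 lower and 1 higher), with a median of 0.04. Those with the highest CPM, *Fn1* (fibronectin, also made by fibroblasts) and *Ace*, had log2 fold changes of 0.41 (SE 0.10) and -0.54 (SE 0.17).

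Markers of marginal zone and lymph node macrophages, where *Cd209b* is known, had *Marco* as the 1 called lower of 6 tested (0.568% of all genes tested), with a median of -0.66. An unadjusted p under 0.05 was reached by 4 of them. DESeq2 called 4 lower (381 over all genes), and leaving out 1 library gave 0 to 2 (6 to 137 over all genes). *Lyve1*, which lymphatic endothelium and resident macrophages share, had a log2 fold change of -0.82 (SE 0.15, edgeR adjusted p = 0.0665, or 0.049 with the replicate block), and *Ccl21a*, a chemokine of lymphatic endothelium, one of -0.45 (SE 0.19). B and T cell markers were scarce, at 4 to 6.335 CPM and 7.027 to 12.44 CPM summed over a list, and 0 of 3 tested on each list were called in edgeR's test or by DESeq2 (1 of the B cell markers, *Cd79b*, and 0 of the T cell markers had an unadjusted p under 0.05).

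Erythrocyte markers moved with the selected genes as well. Of 10, 9 passed the filter and 6 were called lower in edgeR's test (0.568% of all genes tested). The replicate block gave 1 (36 over all genes) and DESeq2 8 (381 over all genes). Leaving out 1 library gave between 0 and 4 (6 to 137 over all genes). Their summed level was between 2024 and 3011 CPM in the controls and between 694.7 and 1003 CPM in the Lysm-Cre; Ampkα1fl/fl group, without overlap, and each listed marker of the table was detected. *Hba-a1* (alpha globin) was at 713 ± 191 CPM and 234 ± 41.2 CPM (SD, n = 3 each), and *Slc4a1* (band 3 of the red cell membrane) had a log2 fold change of -1.62 (SE 0.23, edgeR adjusted p = 0.0396, or 0.0629 with the block). With the block the adjusted p was 0.0611 for *Hba-a1*, 0.0634 for *Hba-a2*, 0.0524 for *Hbb-bt* and 0.0611 for *Alas2*, each called without it, and 0.0466 for *Hbb-bs*. *Hba-a1* and *Hba-a2* are nearly identical, and the division of reads between them is uncertain. The part of this shift in the values of the selected genes was not tested.

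Skeletal muscle markers varied widely within each group. They summed to 176.5, 540.9 and 3010 CPM in the controls and 3290, 1023 and 8794 CPM in the Lysm-Cre; Ampkα1fl/fl group, and 0 of 12 were called in edgeR's test or by DESeq2, with 0 at an unadjusted p under 0.05. *Acta1* and *Mylpf* had log2 fold changes of 1.78 (SE 1.14) and 1.81 (SE 1.08). With the mean of these markers as a covariate, the log2 fold change of the summed *Cd209* reads was -2.22 (SE 0.19). Among tendon markers 1 of 10 was called lower in edgeR's test, where 0.568% of all genes tested were. It was *Dcn* (decorin, log2 fold change -0.45, SE 0.06, edgeR adjusted p = 0.0301, or 0.0611 with the block). *Col1a1* and *Col1a2* had log2 fold changes of -0.005 (SE 0.07) and -0.009 (SE 0.08).

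The pattern of the selected genes over the 6 libraries was followed through the mean of their centred log2 CPM (*Cd209a*, *Cd209f*, *Cd209g* and *Clec10a*, with 2 reads added). Of the 4 genes, *Clec10a* lay nearest to that mean, at a root mean square distance of 0.259, and *Cd209g* farthest, at 0.437. Other genes near to it, among those with a mean of at least 1 CPM, were *Lypd1* at 0.194, *Hbb-bs* at 0.206, *Hbb-bt* at 0.216 and *Alas2* at 0.233.

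*Lypd1*, a membrane-anchored protein of the Ly6 family, had 2.43, 1.75 and 2.36 CPM in the controls and 0.73, 0.378 and 0.378 CPM in the Lysm-Cre; Ampkα1fl/fl group. *Hbb-bs* and *Hbb-bt* are beta globins and *Alas2* is the first enzyme of heme synthesis in red cells. In each of these 4 genes the groups were apart, as the measure of likeness implies.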

How the data were processed

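Injured tendon tissue of 3 control and 3 Lysm-Cre; Ampkα1fl/fl mice was sequenced on the BGISEQ platform. For each of 65053 transcript rows, the table as deposited by the authors holds estimated counts without any scaling, and TPM values, scaled by the authors to transcript length and library total. The submitters' processing notes name GRCm38.p6 as the genome build. The aligner, the counting tool and whether strand was used are not given in the sources used here. Another 20 columns (other normalized values and group averages) were not used.

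Estimated counts were summed per gene and rounded, which gave 18099 genes, of which 18049 matched a symbol in RefSeq's gene table of the same build. Differential expression was fitted in R 4.3.3 with edgeR 4.0.16 (TMM, filterByExpr, quasi-likelihood test, Benjamini-Hochberg adjustment over all 14261 genes tested, threshold 0.05). Standard errors (SE) were taken as |log2 fold change| over the root of F. The paper names no test for sequencing counts, and its other comparisons are unpaired, so the groups were compared unpaired. CPM use TMM-scaled library sizes. Alternatives were DESeq2 1.42.0, RLE, 2 other filters, a replicate block, a skeletal muscle score as covariate, leaving out each library, TPM and single transcripts. Deviations from the group means had correlations of 0.184, 0.118 and 0.31 over genes between libraries with the same replicate number (1, 2 and 3). Libraries of unlike number were not compared in this way, and the labels name no pairing. The pairs by replicate number in the block fit are therefore an assumption. The code was tested on simulated data. Intervals and the floor of 3 reads cover counting error only. The submitters' design text gives 3 mice for each group, and p-values measure the spread between these samples.

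The 6 selected genes and all gene lists were chosen with earlier results of these data known. Genes named are the selected genes, the other Cd209 genes, *Prkaa1* and *Lyz2*; called genes of a list or of the neighbourhood, up to 5, and its 2 with the highest mean CPM; *Mgl2*, *Mrc1*, *Adgre1*, *Csf1r* and *Cd68*; and the 5 genes most like the selected ones. Some genes that this rule names are not reported here. Genes outside this rule are marked in the text or serve as an example of a list.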

Additional observations from a re-analysis of the deposited data

How the results depend on the processing

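The log2 fold change of the summed *Cd209* reads was -2.21 and stayed between -2.35 and -2.13 when 1 library was left out, and the number of selected genes with groups apart was 4, or 4 to 5 when 1 library was left out. TPM and single transcripts in place of CPM both gave 4. *Cd209f* ranged from -2.47 to -2.12 over all alternatives, *Cd209g* from -3.46 (without Lysm-Cre; Ampkα1fl/fl replicate 1) to -2.36, *Cd209a* from -1.43 to -0.95 and *Clec10a* from -1.44 to -1.13. The upper ends are differences in log2 CPM with 2 reads added, relative to the pan-macrophage markers, so that both the scaling and the estimate differ from the edgeR fit. These, like the sum of *Cd209f* and *Cd209g*, were added after the data were seen.

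Counts of called genes depended on the fit. Over all genes, 128 were called (81 lower and 47 higher). The replicate block gave 47 (36 lower and 11 higher), and 1 of the selected genes in place of 3. It also ended the calls of *Marco*, *Dcn*, *Slc4a1*, *Hba-a1*, *Hba-a2*, *Hbb-bt* and *Alas2*, and called *Lyve1*. The skeletal muscle covariate gave 75 (48 and 27), with 2 of the selected genes and a log2 fold change of -1.08 for *Cd209a*. The filter of 10 reads in every library also left 2 of the selected genes. DESeq2 gave 688 (381 and 307). Leaving out 1 library gave from 8 to 276 genes, 6 to 137 lower and 2 to 139 higher, and 1 to 2 of the selected genes. The cause of these differences was not tested. *Cd209b*, *Cd209d* and *Cd209e* are limited by depth.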
